A study of Solanum lycopersicum with 3 samples.

Results

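PG2, GP1 and PMEU1 are tomato genes for proteins that act on pectin in the fruit cell wall, and each was represented by a single probe set among the 10038 non-control probe sets of the tomato GeneChip. They were found by gene symbol, in the array annotation or in the current gene table, and are 3 of the 802 genes named there. RNA came from pericarp (the fruit wall) of glasshouse-grown Solanum lycopersicum, cultivar Ailsa Craig, and the series compared how the RNA was extracted. The pellet preparation is RNA from the cell debris of the Ex2 procedure, which was kept and extracted again by that method. The labels repeat the Ex2 protocol for it and do not say how the debris was resuspended. The Ex2 preparation is RNA from the supernatant of tissue taken up in a Tris buffer (2 ml per g) that held 0.6 M KCl, 0.2 M sucrose and 30 mM magnesium chloride, after debris had been spun out at 10000 x g for 15 min. The Ex1 preparation is RNA from tissue taken up in a phenol-containing buffer (1 ml per g) and shaken directly with phenol and chloroform. All of them started from 10 to 12 g of pericarp and ended in the same isopropanol, lithium chloride and ethanol precipitations. Each preparation was hybridised to 1 array, so no difference below has a spread between samples and none was tested. The sources used here do not give the ripening stage, the number of fruits or any pooling.

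Homogalacturonan, the main pectin of the tomato fruit wall, is a chain of galacturonic acid that is laid down with methyl esters on it. Pectin methylesterases remove the esters, and polygalacturonases then cut the chain where it is free of them. PG2 encodes the catalytic polygalacturonase of ripening fruit, one of the most abundant messages of a ripe tomato. GP1 encodes the noncatalytic beta subunit, a wall glycoprotein with which the catalytic protein forms the larger, more heat-stable polygalacturonase isoform. PMEU1 encodes a pectin methylesterase that is expressed in many tomato tissues, unlike the fruit-specific methylesterases. All of these proteins are made on the endoplasmic reticulum and secreted to the wall.

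As deposited, the readings of the 3 messages divided into a pair that differed strongly between the preparations and 1 that hardly did. GP1 and PMEU1 were many-fold brighter in the Ex2 supernatant than in the pellet or in Ex1. PG2, which lay near the top of the scale on every array, read within 1.23-fold of itself on all 3 arrays. Intensities are the deposited linear values, and differences are those of log2(intensity + 1), the preparation named first less the one named second. A difference of 1 is therefore 2-fold, and differences of dim probe sets are understated. The preparations differ in how RNA was extracted, so a difference here is one between RNA extracts. How much of a message the cells held was not measured.

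GP1 (gene ID 543991) had an intensity of 338 in the pellet, 1661 in Ex2 and 134 in Ex1. Ex2 stood far above both other preparations, and the pellet stood between Ex2 and Ex1. On the log2 scale GP1 differed by 3.62 for Ex2 against Ex1, a 12.3-fold higher reading in Ex2. It differed by -2.29 for pellet against Ex2 (4.90-fold lower in the pellet) and by 1.33 for pellet against Ex1 (2.51-fold higher in the pellet). The pellet reading was 20.4% of the Ex2 reading and the Ex1 reading was 8.08% of it.

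PMEU1 (gene ID 544016) had an intensity of 173 in the pellet, 693 in Ex2 and 70.7 in Ex1. The order of the preparations was that of GP1, with Ex2 highest and Ex1 lowest. PMEU1 differed by 3.28 on the log2 scale for Ex2 against Ex1 (9.68-fold higher in Ex2), by -1.99 for pellet against Ex2 (3.98-fold lower in the pellet) and by 1.28 for pellet against Ex1 (2.43-fold higher in the pellet). The Ex1 reading was 10.2% of the Ex2 reading.

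PG2 (gene ID 544051) had an intensity of 14827 in the pellet, 16220.0 in Ex2 and 13236 in Ex1. The order was again Ex2, pellet, Ex1, but the steps were small. PG2 differed by 0.29 on the log2 scale for Ex2 against Ex1 (1.23-fold), by -0.13 for pellet against Ex2 (1.09-fold lower in the pellet) and by 0.16 for pellet against Ex1 (1.12-fold). Its pellet and Ex1 readings were 91.4% and 81.6% of its Ex2 reading. Without replicates it cannot be said whether neighbours in this order differ beyond the spread between samples.

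**Figure D1:**
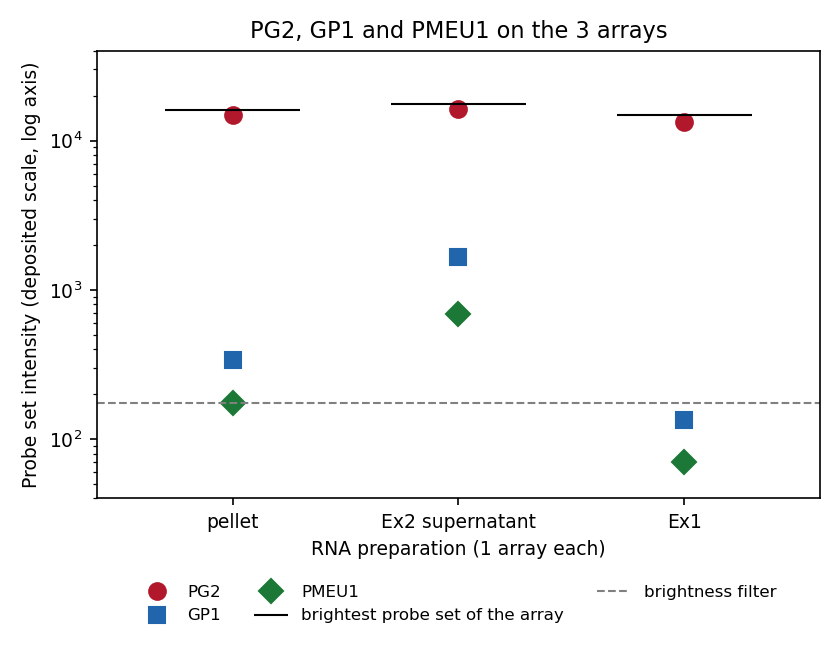
Probe set intensity (log axis) of PG2, GP1 and PMEU1 in the pellet, Ex2 and Ex1 preparations, 1 array each, with the brightest probe set of each array as a black bar and the brightness filter of 175 as a dashed line. GP1 (338, 1661 and 134) and PMEU1 (173, 693 and 70.7) peak in Ex2, while PG2 lies just under the brightest probe set on every array.

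One yardstick for measurement error was available within the arrays. Among named genes with several bright probe sets, the median gap between probe sets of the same gene was 0.22 in Ex2 against Ex1 over 26 genes. It was 0.38 in pellet against Ex2 over 24 genes, and 0.18 in pellet against Ex1 over 25 genes. The widest gaps were 1.15, 1.21 and 0.77. The Ex2 differences of GP1 and PMEU1 exceeded even those largest gaps, while that of PG2 against Ex1 was close to the median gap. The gap describes probe sets on shared arrays and says nothing of how 2 extractions of the same tissue would differ. GP1, PG2 and PMEU1 have 1 probe set each, so their own values could not be checked this way.

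The members were next set against all probe sets. A probe set entered a comparison when the brighter of its 2 values reached 175, or 7.46 as log2, the median over all non-control probe sets and arrays. PG2 passed on every array. GP1 was below that level in Ex1, and PMEU1 in Ex1 and in the pellet, so they passed through their brighter preparations alone. PMEU1 did not pass for pellet against Ex1, where both its values were dim.

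In Ex2 against Ex1, 2 of the 3 members were at least 2-fold higher in Ex2, against 17.3% of all 5568 probe sets that passed. None was at least 2-fold lower, against 10.1% of all. GP1 had the highest difference of the 495 named genes that passed, and 1 probe set of the 5568, an unnamed one, exceeded it. PMEU1 was exceeded by 8 probe sets, among them those of GP1, TBG2, Cel1 and TBG5. PG2 was exceeded by 1420 probe sets, or 25.5%. GP1 and PMEU1 passed here through Ex2 alone, so their count and ranks describe the readings and are not support.

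The differences of all probe sets in this comparison formed 2 humps. There were 1496 probe sets from -0.5 to 0, 175 from 1 to 1.5, and 327 from 2 to 2.5. GP1 and PMEU1 lay beyond the crest of the upper hump, where 40 probe sets fell from 3 to 3.5 and 3 from 3.5 to 4. PG2 lay on the right flank of the lower hump, above the median of all differences, which was -0.25.

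In pellet against Ex2, 2 of the 3 members were at least 2-fold lower in the pellet, against 19.8% of all 5538 probe sets that passed, and none was at least 2-fold higher, against 17.0%. GP1 and PMEU1 were less extreme here than in the comparison with Ex1. Of all probe sets, 122 lay below GP1 and 245 below PMEU1. PG2 had 40.5% of probe sets below it. Ex2 is shared by both comparisons, so the opposite signs in them are not separate support. PMEU1 passed here through Ex2 alone as well.

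In pellet against Ex1, 1 of the 2 members that passed, GP1, was at least 2-fold higher in the pellet, against 3.78% of all 5297 probe sets. None was at least 2-fold lower, against 4.78%. GP1, which passed here through the pellet alone, was exceeded by 88 probe sets, or 1.66%. PG2 was exceeded by 34.5%.

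**Figure D2:**
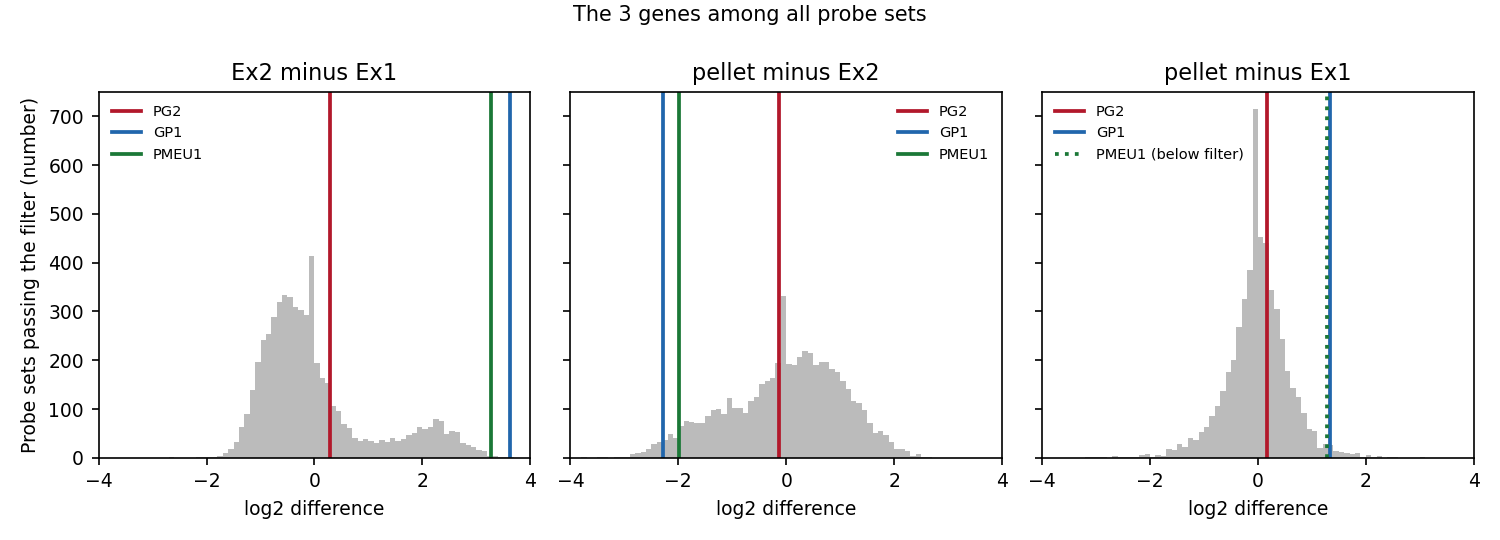
Histograms of the log2 difference of every probe set that passed the brightness filter (number of probe sets on the vertical axis, 0.1 wide bins), 1 panel per comparison, with vertical lines for PG2, GP1 and PMEU1. GP1 (3.62) and PMEU1 (3.28) lie at the far right for Ex2 against Ex1 and on the left side (-2.29 and -1.99) for pellet against Ex2, while PG2 stays near 0. A dotted line marks PMEU1 where it was below the filter.

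Because a constant brightening of an array adds the same amount to every gene, the difference between members is free of it. Relative to PG2, GP1 was higher by 3.33 on the log2 scale in Ex2 against Ex1, and PMEU1 by 2.98. In pellet against Ex2 the same contrasts were -2.16 and -1.86, and in pellet against Ex1 they were 1.16 and 1.12. These contrasts take the PG2 reading at face value. PG2 lay near the top of the scale on every array, and whether its own differences were compressed there was not tested. GP1 and PMEU1 stayed together, with differences that lay 0.34, -0.30 and 0.05 apart in the 3 comparisons (GP1 minus PMEU1). That separation is within the range of gaps seen between probe sets of the same gene. The pellet against Ex1 value follows from the other 2 comparisons, so it is not separate support. Both PMEU1 readings there were below the filter, which also limits its contrast of 1.12 with PG2.

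The profile of each member over the 3 arrays was also matched to the other 501 named genes that were bright on at least 1 array, by the Euclidean distance over the log2 differences Ex2 against Ex1 and pellet against Ex1. GP1 and PMEU1 were each other's nearest gene, at a distance of 0.35. After PMEU1, the genes nearest to GP1 were the beta-galactosidase gene TBG2 (0.43), the endoglucanase gene Cel1 (0.54), LOC543878, whose older symbol is PR5, that of a secreted thaumatin-like defence protein (0.65), and TBG4 (0.68). After GP1, those nearest to PMEU1 were sbt3 (0.38), TBG2 (0.40), TBG4 (0.45) and SBT1 (0.48), where sbt3 and SBT1 encode subtilisin-like proteases. With 3 arrays this likeness rests on 2 numbers per gene. PMEU1, sbt3 and SBT1 reached the filter in Ex2 alone, so their pellet against Ex1 differences come from dim readings. GP1, TBG2 and Cel1 were below it in Ex1. The likeness describes the readings and is not support.

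PG2 had a more ordinary profile. Its nearest genes were PYD1A at a distance of 0.12, LOC544143 and LOC543961 at 0.13 each, and LOC543863 and 2A11 at 0.14 each. LOC543961 carries the older symbol SUS1, that of a sucrose synthase, and 2A11 is an abundant fruit message. Within a distance of 0.5 there were 887 of 5670 other probe sets around PG2, 34 around PMEU1 and 7 around GP1. PG2 lay 3.52 from GP1 and 3.18 from PMEU1.

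The remaining pectin genes were taken from 5 lists by role, which held 70 symbols. Of these symbols 20 genes had a named probe set, 17 of them other than PG2, GP1 and PMEU1. In Ex2 against Ex1, 9 of the 11 others that passed were 2-fold or more above Ex1, against 17.3% of all probe sets. A fall of 2-fold or more was seen in 0, against 10.1% of all. Their median difference was 2.90, against -0.25 for all probe sets. LOC543517, TBG2 and TBG6 were below the filter in Ex1 and passed through Ex2 alone, so their part of the count is not support. Of the others, which were above the filter on both arrays, XYL1 alone was not 2-fold higher in Ex2. In pellet against Ex2, 9 of 11 were at least 2-fold lower in the pellet, against 19.8% of all, and 0 higher, against 17.0%. The median was -2.26 against 0.07. LOC543517 and TBG6 were below the filter in the pellet and passed here through Ex2 alone as well. In pellet against Ex1, 0 of 9 were 2-fold apart in either direction, with a median of 0.65 against 0. Of all probe sets 3.78% were higher and 4.78% lower there, so 0 of 9 is near the share of all.

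Among genes that cut the pectin chain, PG2 alone was bright enough to compare. The abscission polygalacturonase genes TAPG1, TAPG2 and TAPG4 and the gene XOPG1 read between 7.73 and 10.97 on all 3 arrays, close to the lowest values there. PGcat, a further polygalacturonase gene by its symbol, had 12.1 in the pellet, 18.8 in Ex2 and 13.6 in Ex1. These probe sets were dim in every preparation, so their differences carry little.

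All 3 methylesterase genes with a named probe set were brightest in Ex2. PME2.1, a fruit methylesterase gene, had an intensity of 1030.5 in the pellet, 4374 in Ex2 and 574 in Ex1. It was 7.60-fold higher in Ex2 than in Ex1, and its pellet reading was 4.24-fold below that of Ex2, close to PMEU1. PE1, the fruit-specific methylesterase gene also listed as PME1.9, had 7794 in the pellet, 12684 in Ex2 and 5531 in Ex1. Its Ex2 reading was 2.29-fold its Ex1 reading, and its pellet reading was 1.63-fold below its Ex2 reading. PE1 therefore lay between PG2 and the other methylesterase genes in the size of its differences. PE1 and PME2.1 are adjacent in the tomato gene table, next to PME3, which had no named probe set, and the probe set of PE1 is of a design that several transcripts of a gene share.

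On the list of polygalacturonase partners and inhibitors, GP1 alone had a named probe set. Its neighbours in the tomato gene table are AROGP2 and AROGP3, genes of the same symbol family without a named probe set. Whether their transcripts contribute to the GP1 reading was not tested, since probe sequences were not used here.

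Most genes that passed on the list of pectin side chain enzymes gave readings like those of GP1 and PMEU1. Of the 10 genes on the array 9 passed in Ex2 against Ex1. At least 2-fold higher in Ex2 were 7, against 17.3% of all probe sets. The beta-galactosidase genes TBG2, TBG5, TBG4, TBG3 and TBG1 differed by 3.46, 3.31, 3.14, 3.12 and 2.68 on the log2 scale. The arabinofuranosidase gene LeARF1 (now LOC543517) was 7.48-fold higher and LEXYL2 (now LOC543515) 4.78-fold higher. TBG6 (1.79-fold) and XYL1 (1.13-fold) were the exceptions. LeARF1, TBG2 and TBG6 passed through Ex2 alone.

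The pellet lay between Ex2 and Ex1 in 11 of the 14 pectin genes whose brightest value passed the filter, PG2, GP1 and PMEU1 included. The exceptions TBG1, TBG6 and XYL1 were lowest in the pellet. Over all probe sets that order, Ex2 above pellet above Ex1, held in 910 of 5671. Among the 10 of these genes other than PG2, the pellet stood at 17.2% to 41.3% of the way from Ex1 to Ex2 on the log2 scale (median 27.1%), with GP1 at 36.7% and PMEU1 at 39.1%. PMEU1, LOC543517 and TBG6 passed through Ex2 alone. The order of their pellet and Ex1 values, and the place of PMEU1, therefore rest on dim readings. In all 14 genes the brightest value was that of Ex2, and the order describes the readings and is not support. The place of PG2, 55.8%, divides one small difference by another and moved with the scaling, to 32.4% with ribosomal protein genes held equal and to 100% with quantile normalization. Scaling on the hybridisation spikes left 8 of the 14 genes in that order, PG2 no longer among them, and 405 of all probe sets, and ribosomal scaling left 12 and 1787.

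**Figure D3:**
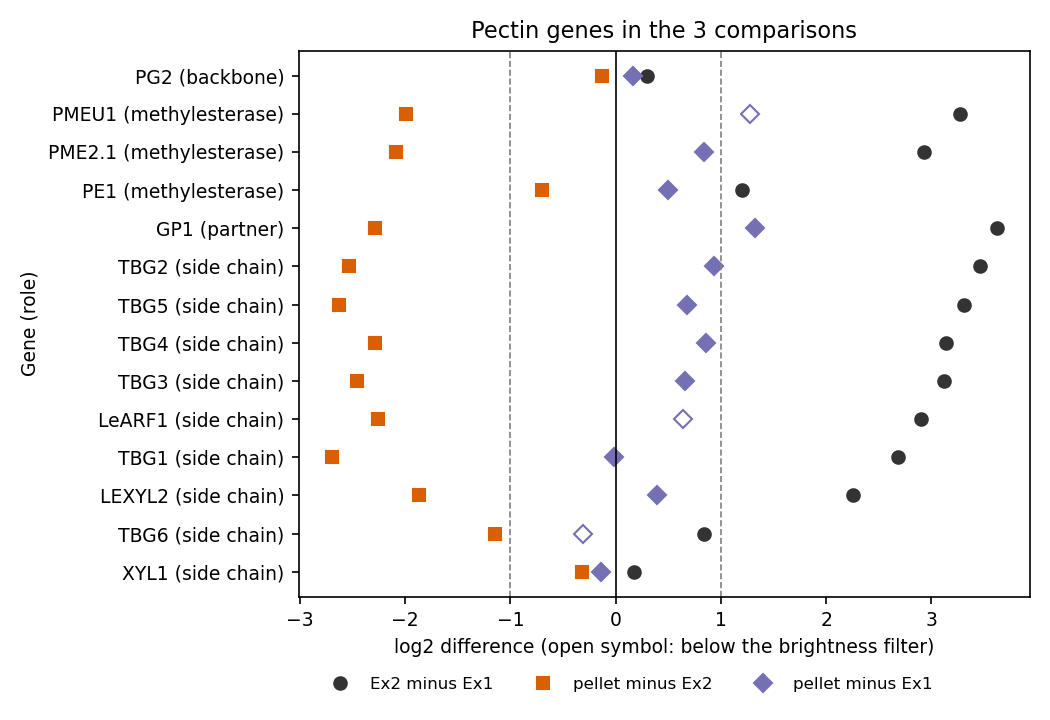
Log2 differences of the 14 pectin genes that passed the brightness filter in Ex2 against Ex1, grouped by role, with circles for Ex2 against Ex1, squares for pellet against Ex2 and diamonds for pellet against Ex1 (open where below the filter in that comparison). Dashed lines mark 2-fold. GP1 (3.62), PMEU1 (3.28) and most side chain genes lie far to the right for Ex2 against Ex1, PE1 is nearer the centre, and PG2 (0.29) and XYL1 (0.18) lie close to 0.

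Genes for other wall enzymes and for ripe-fruit proteins that are not secreted gave 2 points of reference. Of 12 genes for cellulose and hemicellulose loosening that passed, 11 were at least 2-fold higher in Ex2 than in Ex1, against 17.3% of all probe sets (median difference 1.93). In pellet against Ex2, 9 were at least 2-fold lower in the pellet, against 19.8% of all (median -1.30). CEL8, Cel1, EXP5, LOC543916, XTH3 and tXET-B2 were below the filter in Ex1 and passed there through Ex2 alone. CEL8, LOC543916 and tXET-B2 were below it in the pellet as well. The part of these genes in the counts is not support. Of 19 ripe-fruit genes on a list of proteins that stay in the cell, 1 was at least 2-fold higher in Ex2 than in Ex1 and 1 lower, against 17.3% and 10.1% of all (median -0.10, range -1.08 to 1.22). In that comparison PG2, at 0.29, lay inside the range of these 19 genes, and GP1 and PMEU1 lay above all of them. GP1 and PMEU1 passed there through Ex2 alone, while the 19 genes were above the filter in both preparations. The genes were not matched for brightness. In pellet against Ex2, 2 of the 19 were at least 2-fold lower in the pellet and 2 higher, against 19.8% and 17.0% of all probe sets (median 0.03, range -2.28 to 1.63). PMEU1, at -1.99, lay inside that range and GP1, at -2.29, just outside it, since the lipoxygenase gene loxC was at -2.28.

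PG2 also differed from GP1 and PMEU1 in brightness. The brightest probe set read 15923 in the pellet, 17521 in Ex2 and 14956 in Ex1, and just 2, 2 and 8 probe sets were brighter than PG2 on those arrays. The Ex2 maximum was 1.32-fold the PG2 reading of Ex1 (0.40 on the log2 scale), so no probe set on the Ex2 array reached a value that would have put PG2 2-fold above Ex1. Over all probe sets, the highest Ex2 against Ex1 difference was 3.66 at mean log2 intensities from 7.46 to 9, 3.51 from 9 to 11, 2.84 from 11 to 13 and 1.03 from 13 upwards. These bounds were chosen after the values were seen.

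Of the 53 probe sets in the brightest class, which holds PG2 at a mean of 13.8, 2 were at least 2-fold higher in Ex2 than in Ex1 (3.77%) and 0 were at least 2-fold lower. GP1, at a mean of 8.73, shared the 7.46 to 9 class with PMEU1, at 7.68, where 16.2% of 2196 probe sets were at least 2-fold higher in Ex2. PE1 sat just below the brightest class. The part of brightness in the small differences of PG2 and PE1 was not tested.

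**Figure D4:**
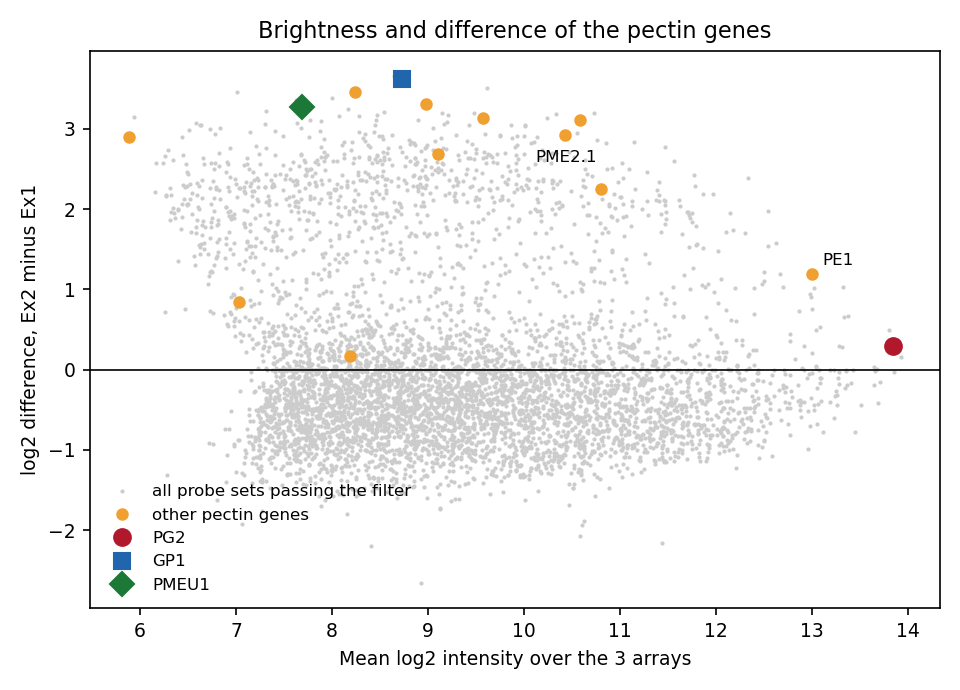
Log2 difference of Ex2 against Ex1 against mean log2 intensity over the 3 arrays for all probe sets that passed the filter (grey), with the pectin genes in colour. The upper edge of the grey cloud comes down with brightness, from 3.66 below a mean of 9 to 1.03 from 13 upwards, and PG2 (mean 13.8) sits at the right end, while GP1 (3.62) and PMEU1 (3.28) lie at the top left.

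Control signals moved between the arrays as well. The bacterial hybridisation spikes gave a median of 2.32-fold more signal on the Ex2 array than on that of Ex1 (21 probe sets). On the pellet array they gave 1.56-fold less signal than on that of Ex2 and 1.49-fold more than on that of Ex1. The ratio of 3' to 5' signal, which rises when RNA is broken or copied short, was 2.81 in the pellet, 3.27 in Ex2 and 2.62 in Ex1 for EF1a. It was 1.35, 1.71 and 1.20 for actin and 1.34, 1.45 and 1.34 for GAPDH in the same order. The 25S ribosomal RNA control read 568 in the pellet, 367 in Ex2 and 1809 in Ex1, the opposite order to that of GP1 and PMEU1. The 8 ripe fruit marker genes that matched summed to 71772 in the pellet, 82062 in Ex2 and 72230.0 in Ex1, all 8 above the filter in each comparison. They include PG2 itself and the expansin gene EXP1, and the other 6 summed to 54150 in the pellet, 59031 in Ex2 and 56673 in Ex1. The 7 green tissue markers summed to 17464, 10613 and 15211. Of these sums PSBR alone gave 10806, 5961 and 9513, and CAB5 and CAB6A were below the filter on every array. The 2 epidermis markers that matched of 8 symbols searched, LE16 and TSW12, summed to 2073, 1928 and 695. The single seed marker read at most 14.0, and no vascular marker matched a named probe set. The part of these signals in the member differences was not tested.

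When the arrays were scaled on the spikes, all probe sets moved by -1.22 in Ex2 against Ex1, by 0.65 in pellet against Ex2 and by -0.58 in pellet against Ex1. When RPL3 and RPL8, genes for ribosomal proteins, were held equal instead, the moves were 0.55, -0.44 and 0.11. GP1 and PMEU1 kept their direction in all 3 comparisons under both, with Ex2 against Ex1 between 2.40 and 4.17 for GP1 and between 2.06 and 3.82 for PMEU1. With the spikes, GP1 in pellet against Ex1 was 0.75, below 2-fold. The small PG2 differences turned direction with the spikes, where PG2 was at -0.92 for Ex2 against Ex1, 0.51 for pellet against Ex2 and -0.42 for pellet against Ex1.

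**Figure D5:**
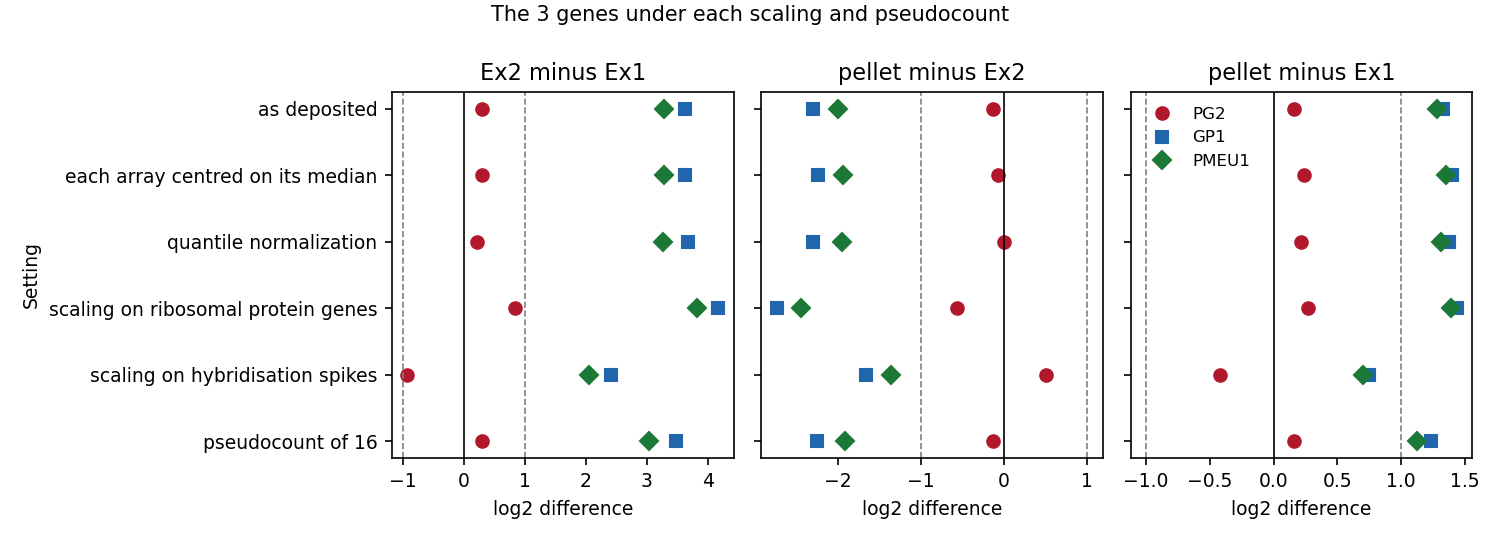
Log2 differences of PG2, GP1 and PMEU1 (horizontal axis) in the 3 comparisons, as deposited and under 4 scalings and a larger pseudocount. GP1 and PMEU1 stay on their side of 0 in every row, and PG2 crosses 0 with scaling on the hybridisation spikes in every panel.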

How the data were processed

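The authors deposited 1 table of linear intensity values for 10209 probe sets on 3 arrays. GCOS 5.0 and RMA are named in the submitters' processing notes, without order or parameters, so how the arrays were scaled to each other is unknown here. The 171 control probe sets were left out of all comparisons. Genes were named from the array's annotation, with current symbols looked up by gene ID in RefSeq (assembly SLM_r2.1): 909 probe sets have 1 name, and 885 of them a gene ID in that table. That annotation is old, and an unnamed probe set is not one without a gene. Coordinates were not used.

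Differences were taken on log2(intensity + 1), with a brightness filter at the median of all non-control values (175). The probe set with the highest mean stands for a gene. With 1 array per group no test was run, and the number of arrays limits the precision. Named were PG2, GP1 and PMEU1, the 5 genes nearest in profile to each, and the pectin lists' members. Members and lists were chosen with earlier results of these data known. Alternatives were 4 scalings, a pseudocount of 16, averaging a gene's probe sets, other filters, thresholds of 1.5-fold and 3-fold, and leaving out designs named _s_at or _x_at. The code was tested on simulated data. Python 3.11.15, pandas 2.3.3, NumPy 2.4.6 and matplotlib 3.10.9 were used.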

Additional observations from a re-analysis of the deposited data

How the results depend on the processing

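A value counts here as changed when it moved by more than 1.5-fold. Scaling on the hybridisation spikes gave 2.40 for GP1, 2.06 for PMEU1 and -0.92 for PG2 in Ex2 against Ex1, and -1.66, -1.36 and 0.51 in pellet against Ex2. That scaling shifts all probe sets alike, so the differences between members did not change with it. Quantile normalization put PG2 at 0 for pellet against Ex2, and a pseudocount of 16 put PMEU1 minus PG2 at 0.96 for pellet against Ex1, below 2-fold. The counts of pectin genes 2-fold apart in Ex2 against Ex1 (11 as deposited, 10 to 12 otherwise) and in pellet against Ex2 (11, 9 to 12 otherwise) stayed within 1.5 times. With the spikes XYL1, at -1.04, was at least 2-fold lower in Ex2 than in Ex1, where no pectin gene was as deposited. For pellet against Ex1 the count of 1 became 2 with centring on medians, with ribosomal scaling and with no filter, 6 at 1.5-fold, and 0 with the spikes, with the upper-quartile filter and at 3-fold. Averaging probe sets left PG2, GP1 and PMEU1 as they are, since each has 1, and no other probe set of these genes could be used in their place. No paired analysis was possible because each group has 1 array.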
